A study of Mus musculus with 29 samples.

Results

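Primed epiblast stem cells (EpiSC) were compared here with embryonic stem cells (ESC) that had been adapted to a medium of Activin, Chiron and LIF (NACL), across all genes of a 1-colour Agilent mouse array. The arrays were chosen by their sample labels and number 7 of the 29 in the series, 3 of EpiSC and 4 of NACL. The EpiSC came from the male double reporter line HRHNG, had been derived by differentiating ESC, and were kept as a stable culture in EpiSC conditions whose composition the labels do not give. The NACL cells were male ESC held for at least 3 passages in serum-free N2B27 with the TGF-beta family ligand Activin, the GSK3 inhibitor Chiron and the cytokine LIF. NACL 1 and NACL 2 were of line HVMC, NACL 3 of line E14 and NACL 4 of line E14-NanogGFP. Beside them stand 3 arrays of male ESC in 2i with LIF (2iL) for at least 3 passages, of lines HVMC, E14 and E14-NanogGFP, and 3 arrays of male ESC of line HRHnG. The culture medium of the HRHnG ESC is not given here. The series' design text names HRHnG for every group except XEN cells, against the line labels of the NACL and 2iL arrays, which were followed here. Because every EpiSC array is of 1 line and no NACL array is of that line, cell state and cell line cannot be told apart in EpiSC against NACL.

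Naive pluripotency is the state of the epiblast before implantation, and in culture it is held by LIF, which acts through the LIF receptor and STAT3, and by inhibition of GSK3, which relieves repression of the naive transcription factors by TCF7L1. Primed pluripotency is the state of the epiblast after implantation, and EpiSC cultures are usually held by Activin and FGF, which act through SMAD2 and SMAD3 and through MEK and ERK. Standard naive medium also inhibits MEK. NACL leaves that inhibitor out and adds Activin, so that it holds ESC with the MEK and ERK route free to act.

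Signals are log2 values relative to each array's 75th percentile of signal, and differences are EpiSC minus NACL in log2 units with the standard error (SE) of a limma model; called means a Benjamini-Hochberg adjusted p under 0.05 over all 16347 genes tested. The 75th percentile of signal lay between 143 and 259 scanner units on the 7 arrays, and between 49.2% (NACL 2) and 79.7% (NACL 4) of probes were well above background. Slide 5 held EpiSC 1 and NACL 1 to 3, and slide 6 held EpiSC 2, EpiSC 3 and NACL 4. Arrays of one group correlated at 0.956 to 0.988 and arrays of different groups at 0.869 to 0.892. EpiSC 1 and EpiSC 2 lay closer to each other (robust SD of their log2 difference 0.143 over 7822 bright probes) than either lay to EpiSC 3 (0.346 and 0.325), although they were on different slides. The spread behind the p-values was estimated within groups over all 29 arrays of the series, not over these 7 alone. The labels do not say what separates replicates, so p-values measure only the spread between arrays of a group, which may be technical. With 3 and 4 arrays per group, array number bounds how precise each value below can be.

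Some libraries stood apart within their group, and results that rest on them are given beside their values. EpiSC 3 was at least 1 log2 unit above both other EpiSC arrays for 683 genes (4.18% of those tested) and below both for 752 (4.6%). The same held for 16 of 20 epithelial junction and keratin genes (80.0%) and 11 of 20 actin and YAP target genes (55.0%) on the upper side, and for 5 of 9 neural markers on the lower side. NACL 4 carried the highest summed level of 15 primitive endoderm markers among the NACL arrays (25.1 times the array's 75th percentile signal, against 6.91 at the lowest). In bulk samples, fewer cells of a type and less RNA per cell cannot be told apart.

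The groups differed over much of the transcriptome. Of 16347 genes tested, 6813 were called (41.7%), 3178 of them higher in EpiSC (19.4%) and 3635 lower (22.2%), and the median difference over all genes was -0.06. With each array centred on its median in place of its 75th percentile, 2819 were called higher and 1848 lower, so the balance between the directions depends on the scaling. A difference of at least 1 was reached by 2285 of the genes called higher (14.0% of those tested) and 2025 of those called lower (12.4%). By at least 4, which is 16.0-fold, 232 genes were called higher and 314 lower. EpiSC and NACL arrays did not overlap for 7319 genes (44.8%), 20.7% being higher and 24.1% lower in EpiSC. These shares are the background against which each gene group below is read. Between NACL and 2iL, which share the lines HVMC, E14 and E14-NanogGFP, 673 genes were called higher in NACL (4.12%) and 677 lower (4.14%).

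**Figure D1:**
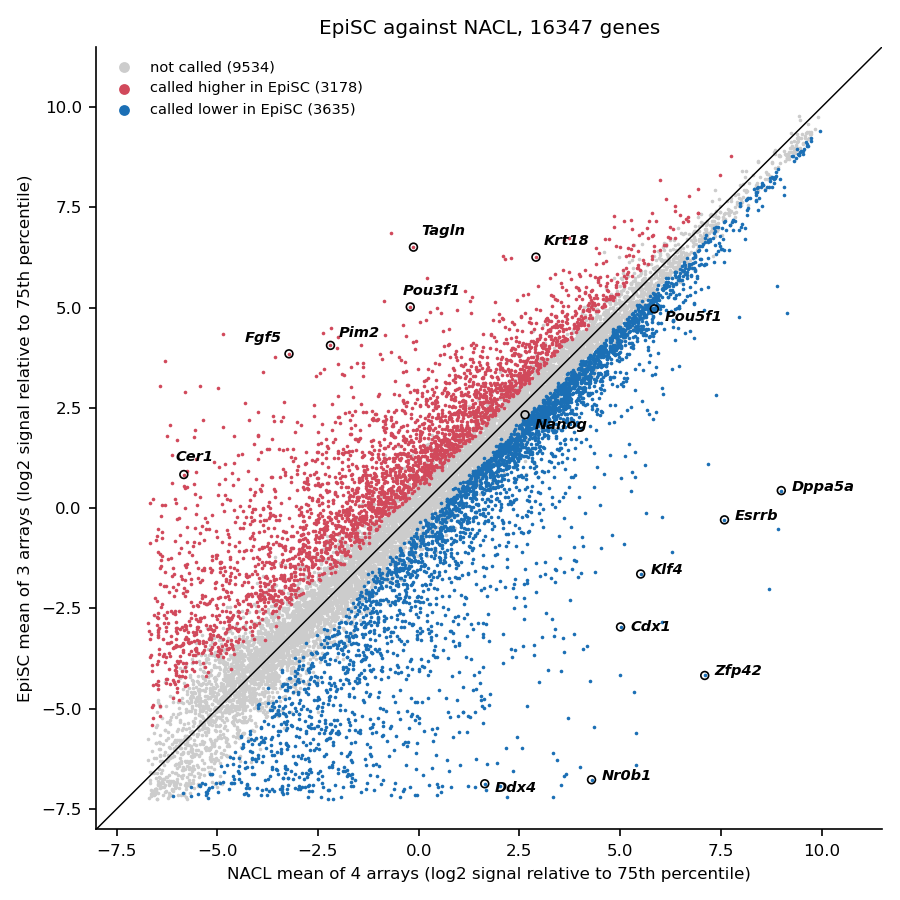
Mean log2 signal of the 3 EpiSC arrays (vertical axis) against that of the 4 NACL arrays (horizontal axis), both relative to the array's 75th percentile, for 16347 genes; red and blue points were called higher and lower in EpiSC, and the diagonal marks equal signal. Esrrb, Klf4, Zfp42 and Nr0b1 lie far below the diagonal, Fgf5, Pim2 and Tagln far above it, and Pou5f1 and Nanog close to it.

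**Figure D2:**
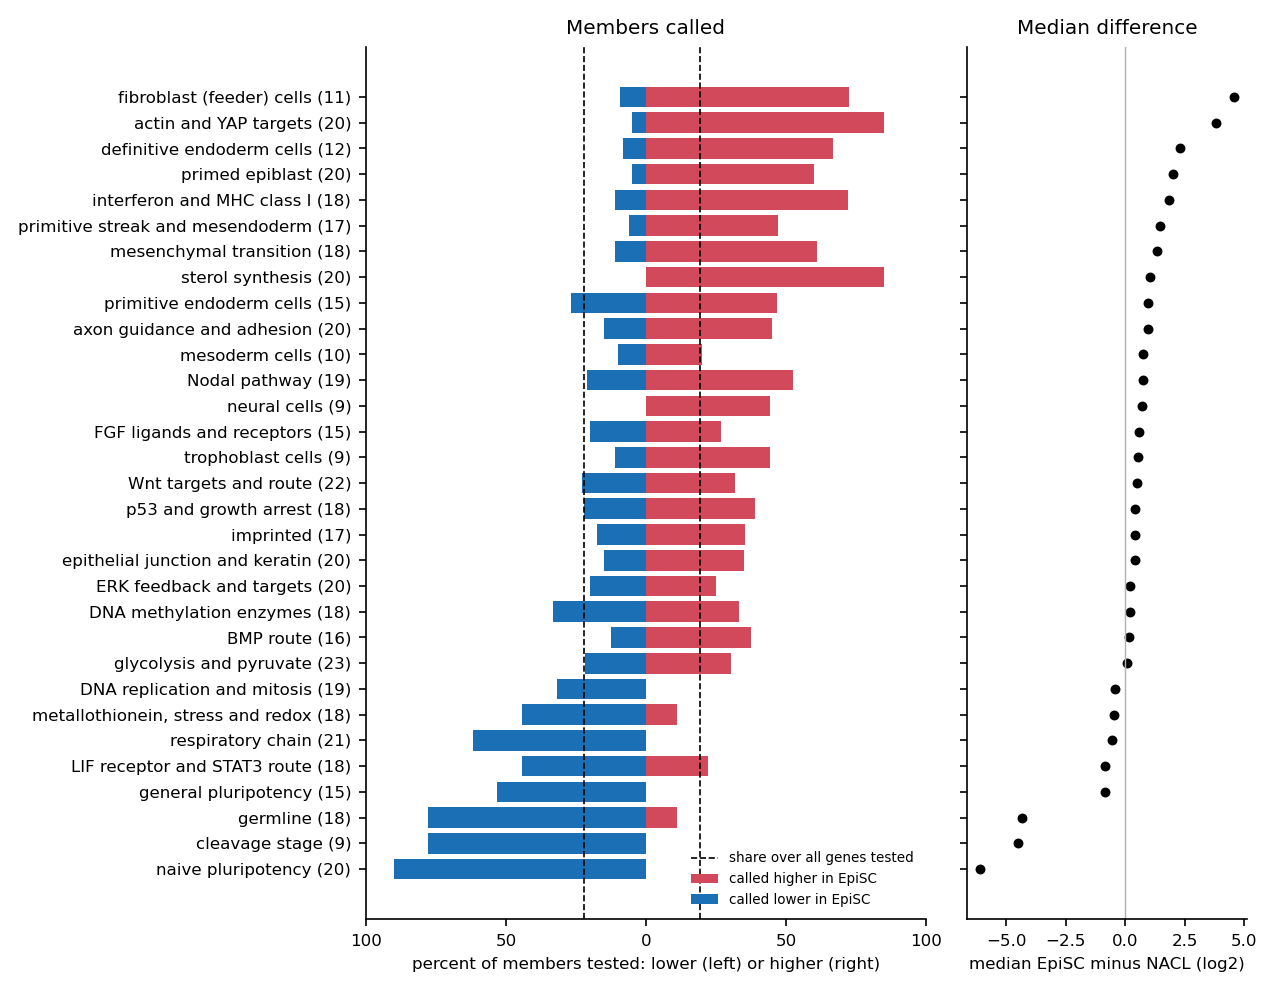
For each gene list (number of members tested in brackets), the percent of members called lower (blue, left) and higher (red, right) in EpiSC with dashed lines at the shares over all genes tested (22.2% and 19.4%), and on the right the median EpiSC minus NACL difference in log2. Naive pluripotency, cleavage stage and germline genes have the lowest medians, and fibroblast markers and actin and YAP targets the highest.

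Naive pluripotency genes were the group with the lowest median difference, -6.11, against -0.06 over all genes. Of 20 members tested, 18 were called lower in EpiSC, none higher, and Gbx2 and Nanog were not called. Zfp42 (Rex1, a zinc finger protein long used as a marker of naive ESC) read -4.56, -3.89 and -4.07 on the EpiSC arrays and 7.27, 7.13, 7.01 and 6.97 on the NACL arrays. It was above background on 2 of 3 EpiSC arrays, and the difference was -11.27 (SE 0.48, adjusted p = 3.8e-14). The EpiSC arrays lay together and far below every NACL array.

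The transcription factors that hold the naive state fell together. Esrrb, an orphan nuclear receptor, read -0.33, -0.34 and -0.21 in EpiSC and 7.86, 7.72, 7.71 and 7.07 in NACL, a difference of -7.89 (SE 0.54, adjusted p = 8.5e-11). Klf4, a Krüppel-like factor downstream of STAT3, read -1.76, -1.75 and -1.40 against 5.37, 5.86, 5.75 and 5.06, a difference of -7.15 (SE 0.27, adjusted p = 3.9e-15). Its relatives were lower by unequal amounts, Klf2 by -6.26 (SE 0.63) and Klf5 by -2.40 (SE 0.26). Nr5a2, a nuclear receptor that can stand in for Oct4 in reprogramming, differed by -7.61 (SE 0.50) and Tfcp2l1, a mediator of LIF and STAT3 signalling, by -5.45 (SE 0.42). Tbx3, a T-box factor of the naive network, differed by -9.16 (SE 0.58) with 2 of 3 EpiSC arrays above background, and EpiSC 3, at -6.15, was below EpiSC 1 and 2, at -3.37 and -2.94.

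For 3 naive genes no EpiSC array was above background, so the data give a lower bound. The bound sets the mean of the group with signal against the dimmest signal that still counted as above background on each array of the other group. Nr0b1 (Dax1), an orphan receptor of the naive network, read 3.90, 3.92, 4.78 and 4.55 in NACL and was at least 609-fold lower in EpiSC (adjusted p = 1.0e-09). Tcl1, an AKT co-activator, was at least 1310-fold lower (adjusted p = 1.8e-11). Prdm14, which represses the FGF receptor route and the de novo methyltransferases in ESC, was at least 143-fold lower (adjusted p = 8.8e-11). Dppa5a, an RNA-binding protein of pluripotent cells and among the brightest of the list, read -0.13, -0.20 and 1.64 in EpiSC against 8.57 to 9.21 in NACL, a 377-fold difference.

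Nanog, the homeobox factor shared by both pluripotent states, was the exception with Gbx2. Nanog read 2.56, 2.51 and 1.92 in EpiSC and 2.84, 3.19, 3.18 and 1.35 in NACL, so the groups overlapped, and the difference was -0.31 (SE 0.72, adjusted p = 0.78). Its sign turned under some alternatives, given in the closing section. Gbx2, a homeobox gene that LIF and STAT3 induce, read 2.17 and 1.99 on EpiSC 1 and 2 but -1.58 on EpiSC 3, against 1.08 to 3.74 in NACL (difference -1.80, adjusted p = 0.18). Dppa3 (Stella), above background on 1 EpiSC array, was low in NACL as well, at -3.35, -3.03, -3.67 and -0.63, with a NACL minus 2iL difference of -3.72 (adjusted p = 0.011). Its EpiSC minus NACL call was lost without EpiSC 1 (adjusted p = 0.10) or NACL 4 (adjusted p = 0.077).

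Genes shared by both pluripotent states differed less. Of 15 general pluripotency genes, 8 were called lower and none higher, and the median was -0.84; without EpiSC 3, 5 were called lower. Pou5f1 (Oct4) read 5.43, 4.78 and 4.70 in EpiSC and 5.62, 6.08, 5.93 and 5.79 in NACL. All EpiSC arrays were below all NACL arrays, and the difference of -0.88 (SE 0.41) was not called (adjusted p = 0.088). Sox2 read 1.94, 1.91 and 1.34 against 4.14, 3.88, 3.99 and 3.61, and its difference of -2.18 (SE 0.70, adjusted p = 0.015) was called, but without EpiSC 3 the adjusted p was 0.059. Lin28a, an RNA-binding inhibitor of let-7 maturation, overlapped between the groups at 5.12 to 5.56 and 4.45 to 5.42. The lowest differences of the list were those of Dppa2 and Dppa4, paired SAP-domain proteins of pluripotent cells, at -5.63 (SE 0.71) and -4.99 (SE 0.31). Other probes of Dppa4 differed by -5.34 (SE 0.42) and -1.52 (SE 0.39).

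Primed epiblast genes were mostly higher in EpiSC. Of 20 members, 12 were called higher, 1 lower and 7 not at all, with a median of 2.01. Fgf5, the FGF ligand that marks the epiblast after implantation, read 3.71, 3.48 and 4.37 in EpiSC and -3.06, -2.49, -2.46 and -4.85 in NACL, a difference of 7.07 (SE 0.73, adjusted p = 5.9e-08) or 134-fold. Pim2, a serine kinase, read 4.28, 4.25 and 3.65 against -3.01, -2.20, -1.50 and -2.05, a difference of 6.25 (SE 0.43, adjusted p = 9.6e-11). Pou3f1 (Oct6), a POU factor of the late epiblast, read 4.90, 4.84 and 5.32 against -0.52, -0.36, -0.16 and 0.22, a difference of 5.23 (SE 0.34, adjusted p = 5.5e-11). In all of these the groups were apart by several log2 units on every array, EpiSC 3 included.

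Other primed genes rose by less and were above background on all NACL arrays. Otx2, the homeobox factor that directs the move out of naive pluripotency, read 3.36, 3.23 and 3.76 in EpiSC and 2.08, 1.22, 2.05 and 0.65 in NACL, a difference of 1.95 (SE 0.76, adjusted p = 0.042). The groups did not overlap, yet the adjusted p rose to between 0.072 and 0.12 without EpiSC 1, EpiSC 2, EpiSC 3, NACL 2 or NACL 4 in turn. Sox3 and Sox11, SOX factors of the epiblast and neural plate, differed by 1.84 (SE 0.47) and 2.55 (SE 0.56). Sox11 was higher in NACL than in 2iL by 3.40 (adjusted p = 0.00043). Fgf15 was called at 3.70 (SE 0.89, adjusted p = 0.0019), but rested on EpiSC 1 and 2, at 3.31 and 3.09, with EpiSC 3 at -2.22 inside the NACL range of -3.15 to -1.79. The 1 member called lower was Tcf15, a bHLH factor linked to priming of ESC for differentiation, which read 2.59, 2.36 and 1.41 in EpiSC against 4.01, 4.86, 5.19 and 4.82 in NACL. Tcf15 was also higher in NACL than in 2iL, by 2.87 (adjusted p = 0.0012).

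**Figure D3:**
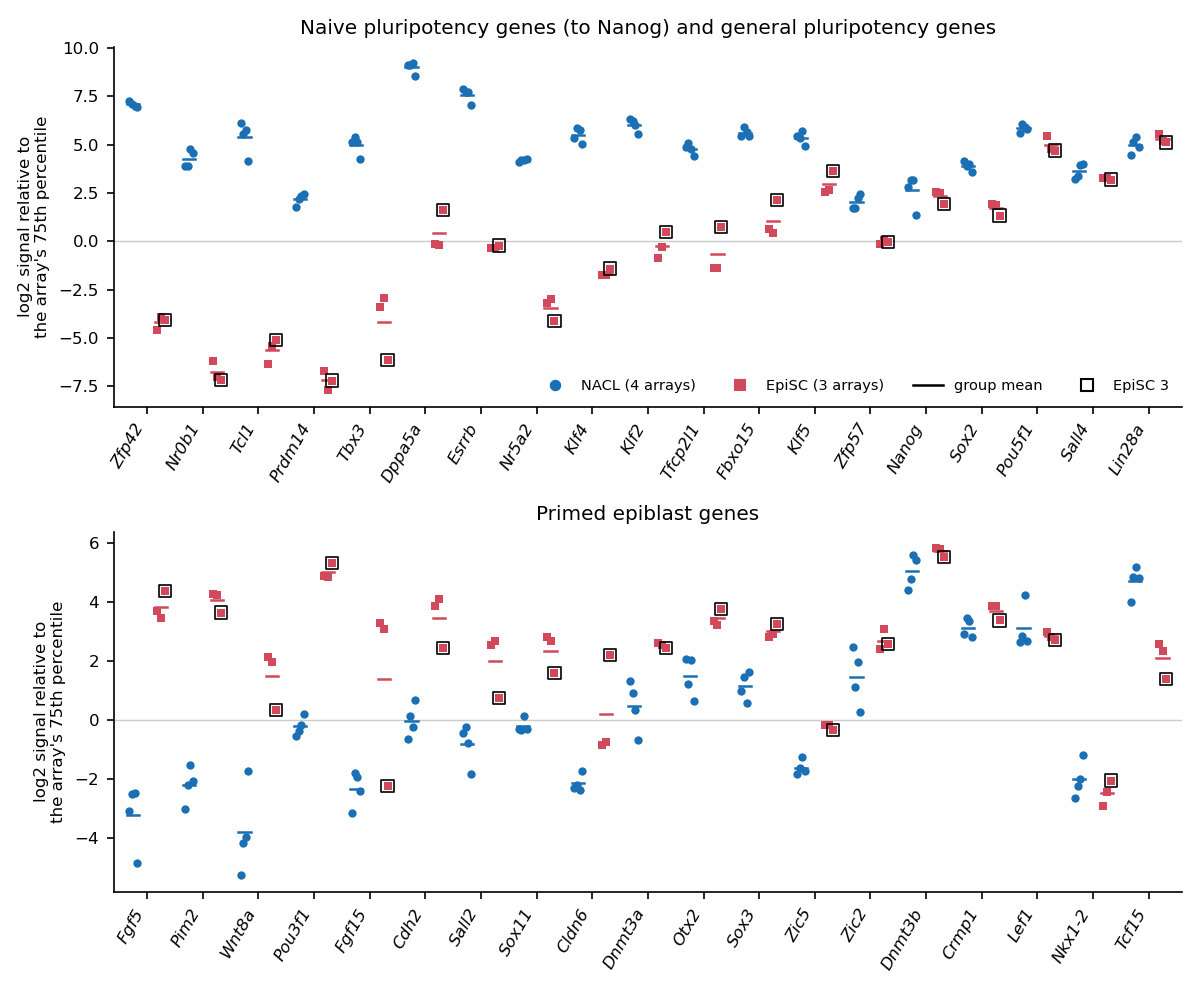
Log2 signal relative to the array's 75th percentile for naive and general pluripotency genes (top) and primed epiblast genes (bottom), with 1 point per array (circles NACL, squares EpiSC, a black outline for EpiSC 3) and bars at the group means. The groups are apart from Zfp42 to Zfp57 and meet at Nanog and Lin28a; below, Fgf5, Pim2 and Pou3f1 separate, and Fgf15 has EpiSC 3 among the NACL arrays.

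Genes of the primitive streak and its derivatives, which EpiSC cultures are known to express at low level, were partly on. Of 17 tested, 8 were called higher in EpiSC and 1 lower, with a median of 1.46. The median was 0.65 with normexp and 0.62 in the authors' series matrix. In a separate fit of only the 12717 genes above background on all 7 arrays, which holds 10 members, 3 were called higher and 2 lower. NACL 1 was the lowest of the NACL arrays for 14 of the 17 (82.4%, against 33.0% of all genes tested). Foxa2, a forkhead factor of the anterior streak and endoderm, read 1.95, 1.96 and 1.47 in EpiSC and -6.82, -3.83, -4.11 and -1.19 in NACL, where it was above background on 2 of 4 arrays (difference 5.78, SE 0.74, adjusted p = 1.3e-06). Cer1, a secreted antagonist of Nodal, BMP and Wnt, read 0.16, 0.32 and 2.05 against -6.66, -5.72, -6.56 and -4.40 (difference 6.68, SE 0.59, adjusted p = 6.1e-09) and was above background on 1 NACL array. Wnt3, the ligand that starts the streak, was above background on all EpiSC arrays and no NACL array, and was at least 19.7-fold higher (adjusted p = 2.9e-07). The T-box gene T (Brachyury) read 1.68, 1.29 and 1.03 against -1.87, -1.04, -0.29 and -0.14, without overlap, and was not called (difference 2.17, SE 0.93, adjusted p = 0.065).

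Gsc and Cdx1 stood apart from the rest of the streak list. Gsc, a homeobox gene of the organiser, read 0.45, 0.39 and -0.20 in EpiSC and -3.84, -3.76, -5.08 and -4.11 in NACL, a difference of 4.41 (SE 0.48, adjusted p = 1.5e-07), with 2 NACL arrays above background. In 2iL it read -0.80, 0.74 and -0.25, so the low group was NACL, which was below 2iL by -4.09 (adjusted p = 1.2e-05). Cdx1, a caudal homeobox gene and Wnt target, was the 1 member called lower in EpiSC, at -2.86, -3.15 and -2.88 against 4.15, 6.26, 4.55 and 5.10 in NACL (difference -7.98, SE 0.52, adjusted p = 5.3e-11). The 2iL mean of Cdx1 was 5.09.

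Nodal pathway genes moved in both directions. Of 19 tested, 10 were called higher in EpiSC (52.6%) and 4 lower (21.1%), against 19.4% and 22.2% of all genes tested. The median was 0.75, although Activin was part of the NACL medium. The feedback antagonist Lefty1 read 6.94, 6.83 and 5.09 in EpiSC and 2.50, 3.40, 1.01 and 1.43 in NACL (difference 4.20, SE 1.03, adjusted p = 0.0022), whereas its neighbour in function Lefty2 read 1.24, 1.07 and 1.25 against 3.37, 3.60, 2.39 and 3.57 (difference -2.04, SE 0.70, adjusted p = 0.021). Both were without overlap, in opposite directions, although without EpiSC 2 the adjusted p of Lefty2 was 0.06. The Activin subunit gene Inhba was at least 13.1-fold higher (adjusted p = 2.2e-10), being above background on no NACL array.

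Among convertases and co-receptors of the pathway, single genes were called in either direction. The receptor Acvr2a differed by 0.90 (SE 0.21) and the transducer Smad3 by 2.06 (SE 0.27, adjusted p = 1.8e-06). Of the convertases that process Nodal, Furin was higher by 1.31 (SE 0.29) and Pcsk6 (PACE4) lower by -5.23 (SE 0.30, adjusted p = 6.0e-12), with -1.49, -1.77 and -2.31 in EpiSC against 3.55, 3.63, 3.20 and 3.14 in NACL. Of the EGF-CFC co-receptors, Cfc1 (Cryptic) read 1.65, 1.91 and 1.88 in EpiSC and was at least 83.6-fold higher, while Tdgf1 (Cripto) was lower by -1.49 (SE 0.37). Other probes of Tdgf1 were not called, at -0.48 (SE 0.55) and -0.37 (SE 0.71). Cfc1 was above background on all 2iL arrays, at -2.71, -3.70 and -2.38, and on no NACL array.

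Wnt targets and Wnt pathway genes had no common direction. Of 22 tested, 7 were called higher in EpiSC (31.8%) and 5 lower (22.7%), with a median of 0.52. Over all genes tested the shares were 19.4% and 22.2%, so the lower share was near the background. Axin2, the feedback gene most often used to read canonical Wnt activity, read -2.52, -3.57 and -4.73 in EpiSC and -0.87, -0.59, -0.40 and -1.96 in NACL (difference -2.65, SE 0.86, adjusted p = 0.016), without overlap; without EpiSC 3 the adjusted p was 0.097. The feedback inhibitor gene Notum differed by -0.78 (SE 0.20) and the receptor gene Fzd5 by -1.93 (SE 0.23). On the other side, the secreted antagonists Dkk1 and Frzb rose by 4.42 (SE 0.73; 2 NACL arrays above background) and by at least 7.37-fold, and the repressor Tcf7l1 by 1.36 (SE 0.26, adjusted p = 0.00021). Tcf7l1 was lower in NACL than in 2iL by -1.48 (adjusted p = 0.00079).

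BMP route genes gave 6 higher (37.5%) and 2 lower (12.5%) of 16, against 19.4% and 22.2% of all genes tested. The median was 0.16, and 1 was called lower on leaving out any EpiSC array or NACL 2, NACL 3 or NACL 4. The ligands went opposite ways. Bmp4 read 2.60, 2.74 and 2.68 in EpiSC and 5.10, 5.37, 5.78 and 5.95 in NACL (difference -2.87, SE 0.63, adjusted p = 0.00077), and Bmp2 read -0.69, -0.61 and 0.82 against -6.59, -5.71, -4.87 and -3.32 (difference 4.96, SE 0.51, adjusted p = 5.0e-08) with 1 NACL array above background. Id2, an inhibitor of DNA binding that BMP signalling induces, was higher by 4.28 (SE 0.44, adjusted p = 5.0e-08).

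Genes fed by ERK signalling did not move as a group, and they show where NACL stands relative to the medium with the MEK inhibitor. Of 20 tested, 5 were called higher in EpiSC, 4 lower and 11 not, with a median of 0.19. Those shares lie near the background. Without EpiSC 1, EpiSC 2 or NACL 2 in turn, 3 were called higher. Dusp6, the phosphatase that dampens ERK, read 5.26, 5.31 and 4.77 in EpiSC, 4.32, 3.95, 4.70 and 4.38 in NACL, and 1.29, 1.79 and 1.25 in 2iL. The EpiSC minus NACL difference was 0.78 (SE 0.27, adjusted p = 0.023) and the NACL minus 2iL difference 2.89 (adjusted p = 1.1e-06). The former was near the threshold, with an adjusted p of 0.08 without EpiSC 1, 0.092 without EpiSC 2 and 0.075 without NACL 2. Dusp4, a related phosphatase, was alike in this respect, with a difference of 0.59 (adjusted p = 0.32) between EpiSC and NACL and 3.55 (adjusted p = 2.4e-05) between NACL and 2iL.

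Some feedback genes were higher in NACL than in EpiSC. Spry4, a Sprouty inhibitor of receptor tyrosine kinase signalling, read -2.77, -4.71 and -4.31 in EpiSC and -0.47, 0.30, 0.91 and -0.44 in NACL (difference -4.0, SE 0.81, adjusted p = 0.00036), and was above background on no 2iL array. Etv4, an ETS factor induced by FGF, read 4.07, 4.02 and 2.52 in EpiSC, 5.99, 6.21, 6.70 and 6.90 in NACL and 4.29, 4.85 and 3.93 in 2iL (EpiSC minus NACL -2.91, SE 0.54, adjusted p = 0.00015). The immediate early gene Egr1 was ordered otherwise, at 1.84, 1.67 and 1.27 in EpiSC, -1.52, -0.20, -0.46 and 0.12 in NACL and -5.16, -4.08 and -4.79 in 2iL, where 1 array was above background (EpiSC minus NACL 2.11, SE 0.69, adjusted p = 0.017), with an adjusted p of 0.057 without EpiSC 1 or without NACL 1. Phlda1 and Dusp5 were higher in EpiSC by 2.57 (SE 0.42) and 2.45 (SE 0.55), the latter above background on 1 NACL array.

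Of 15 FGF ligands and receptors, 4 were called higher (26.7%) and 3 lower (20.0%), with a median of 0.60, against 19.4% and 22.2% of all genes tested. Fgf4, the ligand made by naive ESC, read 0.79, 0.71 and 2.44 in EpiSC and 5.02, 5.07, 5.33 and 5.12 in NACL (difference -3.82, SE 0.89, adjusted p = 0.0013). Fgf5 rose as given above, and Fgf8, a ligand of the primitive streak, read 4.09, 4.02 and 1.76 against -2.87, -2.85, -2.67 and -1.84 (difference 5.85, SE 0.43, adjusted p = 3.0e-10). Of the receptors, Fgfr4 was lower by -3.88 (SE 0.37, adjusted p = 2.1e-08), above background on 2 EpiSC arrays, and Fgfr2 higher by 0.63 (SE 0.19, adjusted p = 0.009). Another probe of Fgfr4 was not called, at -0.15 (SE 0.32), so its difference depends on the probe. Other probes of Fgf8 were higher by 5.46 (SE 0.59) and 1.78 (SE 0.70).

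Genes of the LIF receptor and STAT3 route went both ways. Of 18 tested, 8 were called lower in EpiSC (44.4%) and 4 higher (22.2%), with a median of -0.83, and without EpiSC 3 the number called higher was 2. Lifr, the receptor chain that binds LIF, read -1.18, -1.02 and -1.58 in EpiSC and 2.53, 2.01, 2.07 and 2.10 in NACL, 10.8-fold lower (difference -3.43, SE 0.36, adjusted p = 8.1e-08). Stat3 read 1.93, 1.98 and 2.41 against 3.68, 3.33, 3.54 and 3.14 (difference -1.32, SE 0.17, adjusted p = 2.0e-06), and its feedback target Socs3 differed by -2.17 (SE 0.39). The kinases Jak1 and Jak2 went the other way, by 1.01 (SE 0.19, adjusted p = 0.0002) and 1.67 (SE 0.17, adjusted p = 3.4e-08), without overlap.

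**Figure D4:**
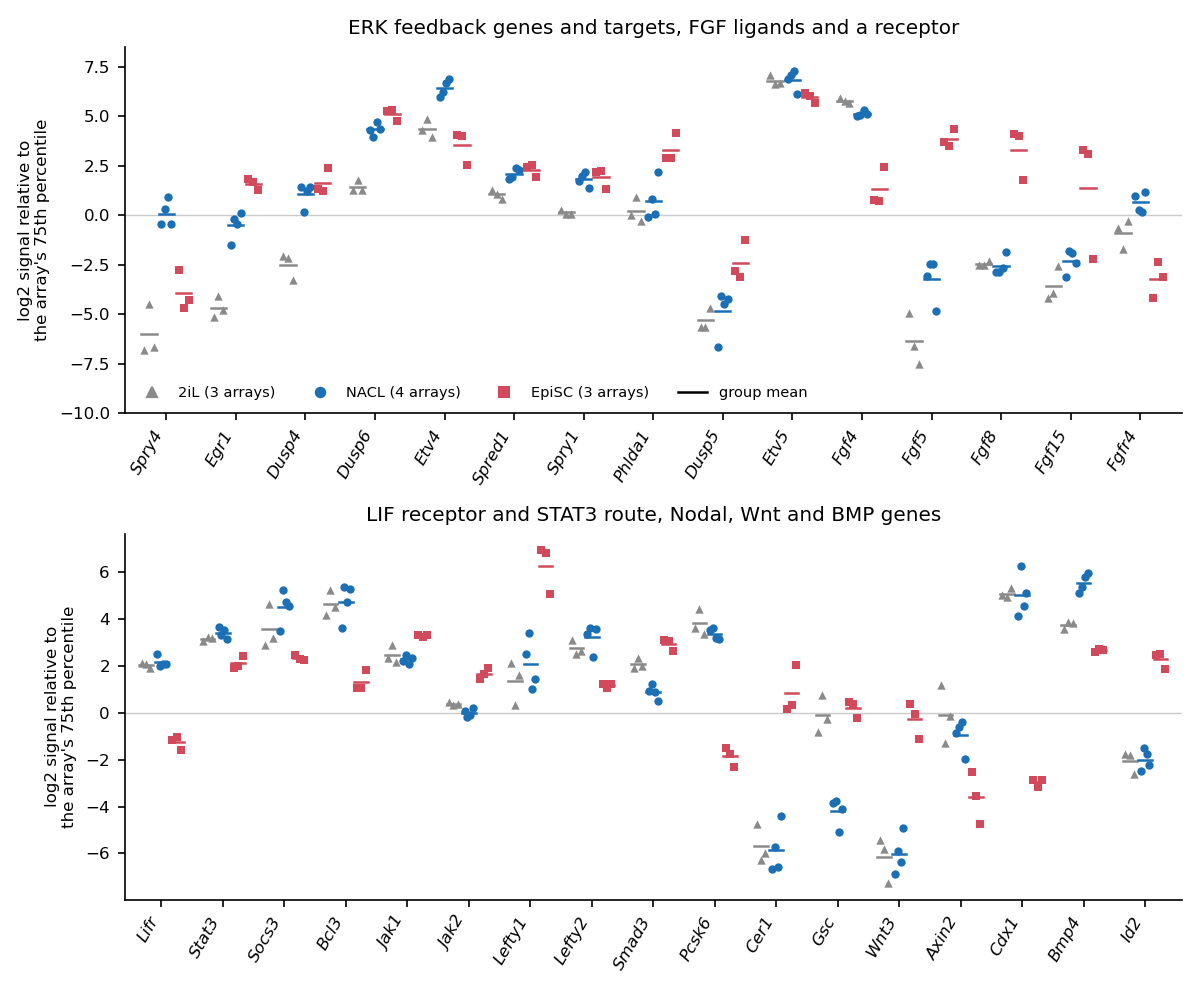
Log2 signal relative to the array's 75th percentile, 1 point per array, for ERK and FGF genes (top) and for LIF, Nodal, Wnt and BMP genes (bottom) in 2iL (triangles), NACL (circles) and EpiSC (squares), with bars at the group means. Dusp6 and Dusp4 are low in 2iL alone, Spry4 and Etv4 are highest in NACL, Gsc is low in NACL alone, and Lifr and Cdx1 are low in EpiSC alone.

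DNA methylation enzymes had no common direction. Of 18 tested, 6 were called higher and 6 lower (33.3% each), against 19.4% and 22.2% of all genes tested. The de novo methyltransferase gene Dnmt3a read 2.61, 2.55 and 2.45 in EpiSC and 1.32, 0.91, 0.35 and -0.67 in NACL (difference 2.06, SE 0.38, adjusted p = 0.00012). The brightest probe of Dnmt3b overlapped between the groups, at 5.52 to 5.82 and 4.41 to 5.59. Another Dnmt3b probe was called higher in EpiSC, by 1.03 (SE 0.33), and a further one was not called, at 0.88 (SE 0.35). The catalytically inactive partner Dnmt3l fell from 5.13, 4.68, 6.09 and 6.65 in NACL to -0.48, -0.52 and 0.59 in EpiSC (difference -5.77, SE 0.56, adjusted p = 2.3e-08). The oxidases Tet1 and Tet2, which start removal of methylation, were lower by -2.09 (SE 0.36) and -3.30 (SE 0.30, adjusted p = 8.4e-09). Uhrf1, which brings the maintenance methyltransferase to replicated DNA, was lower by -0.84 (SE 0.26, adjusted p = 0.012; without EpiSC 3 the adjusted p was 0.091).

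Germline genes, many of which depend on promoter methylation for silencing in somatic cells, were lower in EpiSC. Of 18 tested, 14 were called lower and 2 higher, with a median of -4.32. The median was -1.93 with normexp (15 lower) and -2.37 in the authors' series matrix (14 lower). In the separate fit of only the 12717 genes above background on all 7 arrays, it was -1.32 over 9 members (6 lower). Ddx4 (Vasa), an RNA helicase of germ cells, read 1.62, 2.20, 1.21 and 1.53 in NACL and was above background on no EpiSC array, at least 97.0-fold lower (adjusted p = 2.5e-12). Mael, a piRNA pathway gene, read 2.25, 2.35, 2.39 and 0.76 in NACL and was above background on 1 EpiSC array (difference -8.27, SE 0.70, adjusted p = 2.7e-09). NACL also exceeded 2iL for both genes, by 2.68 (adjusted p = 0.00056) and 2.80 (adjusted p = 0.013). Dazl, an RNA-binding protein of germ cells, was at least 23.5-fold lower in EpiSC but was also lower in NACL than in 2iL, by -1.64 (adjusted p = 0.02). Stk31, Hormad1, Slc25a31 and Sycp1 were at least 24.2-, 20.2-, 4.67- and 5.47-fold lower in EpiSC. The members called higher were Tdrkh, a piRNA processing factor, by 3.47 (SE 0.71), and Sycp3, a synaptonemal complex gene, by 1.38 (SE 0.47, adjusted p = 0.021; 0.17 without EpiSC 3 and 0.091 without NACL 4).

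The promoters of these genes are shown because 8 of the 14 germline genes with a RefSeq window (57.1%) hold the letters CACGTG, an E-box in which methylation of the central CpG is known to block several factors. The window ran from 250 bases before to 50 after the gene start in GRCm38.p6, and CACGTG reads the same on both strands. It was present in 10.7% of the 12953 tested genes with a window, in 14.7% of those called lower, 9.05% of those called higher and 7.15% of all 32851 windows. The motif also stands in the window of Sycp3, which was called higher, and is not in that of Dazl. A match is a description of the letters, and binding and methylation at these windows were not measured here. Each stretch below is 200 bases, read 5′ to 3′ on the gene's strand, with the motif in capitals.
Ddx4, chr13:112652311-112652510, minus strand: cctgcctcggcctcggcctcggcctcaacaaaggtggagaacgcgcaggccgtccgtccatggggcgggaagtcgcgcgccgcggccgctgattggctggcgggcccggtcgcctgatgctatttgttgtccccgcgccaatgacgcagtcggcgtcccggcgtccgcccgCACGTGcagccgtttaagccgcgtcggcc
Stk31, chr6:49395339-49395538, plus strand: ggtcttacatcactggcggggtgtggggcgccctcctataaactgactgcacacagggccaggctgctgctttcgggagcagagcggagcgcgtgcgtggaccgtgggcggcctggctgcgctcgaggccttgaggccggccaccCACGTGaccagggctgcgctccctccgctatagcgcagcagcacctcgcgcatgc
Slc25a31, chr3:40708671-40708870, plus strand: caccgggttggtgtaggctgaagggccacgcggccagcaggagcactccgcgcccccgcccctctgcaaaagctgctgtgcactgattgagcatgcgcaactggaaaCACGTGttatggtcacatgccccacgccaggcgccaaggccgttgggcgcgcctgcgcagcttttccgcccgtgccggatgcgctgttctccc
Sycp1, chr3:102936101-102936300, minus strand: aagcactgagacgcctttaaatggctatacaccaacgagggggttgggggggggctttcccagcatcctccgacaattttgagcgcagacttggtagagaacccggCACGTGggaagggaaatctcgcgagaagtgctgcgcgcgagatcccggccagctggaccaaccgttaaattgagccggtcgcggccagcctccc
Sycp3, chr10:88459387-88459586, plus strand: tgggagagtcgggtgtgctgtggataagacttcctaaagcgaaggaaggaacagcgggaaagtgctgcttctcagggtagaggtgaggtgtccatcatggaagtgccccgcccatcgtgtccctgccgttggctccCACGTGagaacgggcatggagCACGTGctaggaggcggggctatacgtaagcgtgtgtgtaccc

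Promoter CpG content was read in the same windows. The median window of the genes tested held 18 CpG. Among genes with a window, it was 8.0 for the 242 called lower by at least 4 and 14.0 for the 161 called higher by at least 4. Over all called genes the medians were 18.1 and 19.5, so both tails held fewer CpG than the called genes as a whole.

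Cleavage stage genes, which mark a rare transient state in ESC cultures, were lower in EpiSC for 7 of 9 tested, with a median of -4.49. Of these members 3 were above background on all 7 arrays, and the median was -1.04 with normexp background correction and -1.29 in the authors' series matrix, with 4 called lower in each. Zscan4f, a zinc finger gene of the 2-cell embryo, read 3.20, 3.79, 3.31 and 3.46 in NACL and was above background on no EpiSC array, at least 328-fold lower (adjusted p = 9.9e-07). Its near copy Zscan4c differed by -5.24 (SE 0.90, adjusted p = 6.2e-05). Members of this family are nearly identical in sequence and whether a probe reads more than 1 of them was not tested. In 2iL Zscan4f ranged from -0.27 (E14-NanogGFP) to 6.26 (E14), a wider spread than between the NACL lines.

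Genes of the contractile cytoskeleton and targets of YAP were the most uniformly raised of the gene lists beside sterol synthesis, with 85.0% of members called higher in each. Of 20 actin and YAP target genes, 17 were called higher in EpiSC and 1 lower, with a median of 3.81. Acta2 (smooth muscle actin) read 4.62, 4.78 and 3.74 in EpiSC and -2.93, -2.76, -1.98 and -1.84 in NACL (difference 6.76, SE 0.65, adjusted p = 1.9e-08). Tagln (transgelin, an actin cross-linker) read 6.28, 6.26 and 6.99 against -0.34, -0.27, 0.38 and -0.31 (difference 6.65, SE 0.44, adjusted p = 5.3e-11). Myl9, a myosin light chain, differed by 6.67 (SE 0.72) and Cnn1 (calponin) by 6.30 (SE 0.64). No EpiSC array overlapped a NACL array for any of these.

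The YAP targets within the list followed. Ccn2 (CTGF), a secreted matricellular protein, read 5.33, 5.41 and 6.45 in EpiSC and -0.04, 0.07, -0.63 and 1.44 in NACL (difference 5.52, SE 0.61, adjusted p = 1.8e-07). Ccn1 (CYR61) read 3.50, 3.43 and 5.28 against -1.88, -1.84, -1.64 and -0.41 (difference 5.51, SE 0.44), and Ankrd1 was at least 20.8-fold higher (adjusted p = 9.4e-07). The 1 member called lower was Tead4, a DNA-binding partner of YAP, above background on 2 EpiSC arrays, at -4.26, -3.63 and -1.83 in EpiSC against -0.66, -0.41, 0.10 and 0.79 in NACL. A CArG box, the site of serum response factor, was found in the 300-base window of 2 of 14 list members with one, Myl9 and Cnn2, and in 1.68% of tested genes. It is printed for Myl9 in GRCm38.p6, in capitals within 200 bases.
Myl9, chr2:156775264-156775463, plus strand: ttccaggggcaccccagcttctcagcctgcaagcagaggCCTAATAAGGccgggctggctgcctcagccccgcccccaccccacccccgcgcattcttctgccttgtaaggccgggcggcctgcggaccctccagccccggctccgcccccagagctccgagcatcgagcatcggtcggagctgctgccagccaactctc

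Most markers of fibroblasts, which are used as feeder layers for some EpiSC cultures, were also higher in EpiSC than in NACL. Of 11 tested, 8 were called higher in EpiSC and 1 lower, with a median of 4.60 (1.27 with normexp and 1.87 in the authors' series matrix). NACL 1 was the lowest NACL array for 8 of the 11. Their summed level was 129 to 159 times the 75th percentile signal in EpiSC, 4.65 to 20.2 in NACL and 2.94 to 4.34 in 2iL. Without Acta2 and Tagln, which are also on the actin list, it was 27.0, 27.2 and 18.4 on EpiSC 1 to 3 and 3.56 to 18.6 in NACL. EpiSC 3 was at least 1 below both other EpiSC arrays for 3 of the 11 markers and above both for 1. Col1a2, a collagen I chain, read 3.75, 3.86 and 3.27 in EpiSC against -1.79, -1.59, -1.02 and -1.12 in NACL (difference 5.0, SE 0.37, adjusted p = 3.6e-10), and Col1a1 differed by 5.66 (SE 0.99). The surface marker Thy1 went the other way, at -0.17, -0.19 and 0.86 against 2.79, 3.10, 4.10 and 0.97 (difference -2.57, SE 0.74, adjusted p = 0.0074). Of the 11 markers tested, 7 were above background on all 7 EpiSC and NACL arrays. Lum, also on the list, was not tested, since no group read it well above background on every array. The labels do not say whether feeders were used, and the part of fibroblasts in these results was not tested.

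**Figure D5:**
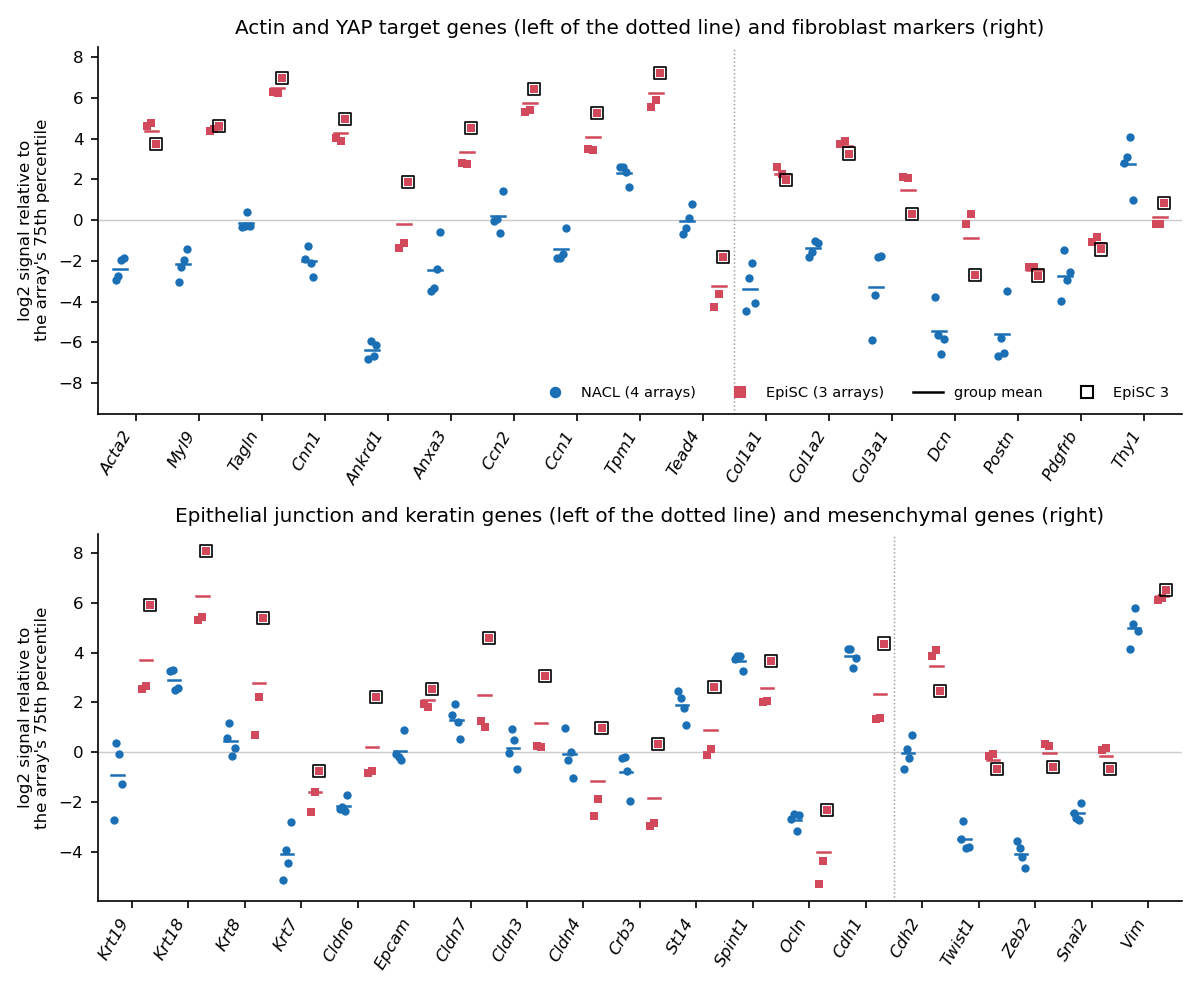
Log2 signal relative to the array's 75th percentile, 1 point per array, for actin and YAP target genes and fibroblast markers (top) and for epithelial and mesenchymal genes (bottom) in NACL (circles) and EpiSC (squares, a black outline for EpiSC 3), with bars at the group means. Acta2, Myl9, Tagln and Cnn1 separate the groups on every array, and EpiSC 3 is above EpiSC 1 and 2 for Cdh1, Krt18 and Krt19.

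Epithelial genes depended on which EpiSC array was read. Of 20 junction and keratin genes, 7 were called higher and 3 lower, with a median of 0.43. Without EpiSC 3 the counts were 4 higher and 7 lower with a median of -0.47, without EpiSC 1 or EpiSC 2 none was called lower, and without NACL 1 or NACL 2 only 1 was. Cdh1 (E-cadherin) read 1.35 and 1.36 on EpiSC 1 and 2 and 4.36 on EpiSC 3, against 4.15, 4.13, 3.37 and 3.78 in NACL (difference -1.50, SE 0.53, adjusted p = 0.026), so EpiSC 1 and 2 lay below every NACL array and EpiSC 3 above. The adjusted p of Cdh1 was 0.18 without EpiSC 1 or EpiSC 2, 0.057 without NACL 1 and 0.058 without NACL 2. The simple epithelial keratin Krt18 read 5.29, 5.44 and 8.07 against 3.27, 3.31, 2.50 and 2.59 (difference 3.35, SE 0.46, adjusted p = 3.3e-06), higher on every EpiSC array. Epcam, an epithelial adhesion molecule, differed by 2.02 (SE 0.28, adjusted p = 4.9e-06), without overlap.

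Mesenchymal genes were raised more evenly, with 11 called higher and 2 lower of 18 and a median of 1.34. Cdh2 (N-cadherin) read 3.87, 4.10 and 2.45 in EpiSC and -0.65, 0.15, -0.23 and 0.68 in NACL (difference 3.49, SE 0.60, adjusted p = 6.2e-05). The repressors of E-cadherin Zeb2 and Snai2 were higher by 4.05 (SE 0.38, adjusted p = 1.3e-08; 3 NACL arrays above background) and 2.31 (SE 0.62, adjusted p = 0.0047), and Twist2, a bHLH factor of mesenchyme, was at least 15.8-fold higher. Fn1 (fibronectin) was lower in EpiSC, at 5.07, 5.03 and 5.32 against 7.35, 6.68, 6.56 and 5.69 (difference -1.43, SE 0.42, adjusted p = 0.008). Cdh11, above background on 1 EpiSC array, was called lower by -3.64, but another probe of the gene was called higher by 2.55, so its direction is not settled.

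Genes of antigen presentation and interferon response were higher in EpiSC for 13 of 18 tested and lower for 2, with a median of 1.85. The immunoproteasome subunit Psmb8 read 1.37, 1.32 and 2.73 in EpiSC and -4.82, -5.04, -4.45 and -4.03 in NACL, where 1 array was above background (difference 6.39, SE 0.88, adjusted p = 3.8e-06). The peptide transporter Tap2 read 2.25, 2.03 and 2.83 against -1.68, -1.30, -2.17 and -2.17 (difference 4.20, SE 0.47, adjusted p = 2.4e-07). The class I chains H2-K1 and H2-D1 were higher by 1.94 (SE 0.32) and 1.76 (SE 0.26), and their partner B2m by 2.37 (SE 0.28, adjusted p = 4.8e-07); class I genes are similar in sequence and whether their probes cross-hybridise was not tested.

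Interferon-induced genes within the list were not uniform. Isg15, a ubiquitin-like modifier, read 3.27, 3.17 and 4.44 in EpiSC and -1.77, -1.59, -2.33 and -0.48 in NACL (difference 5.17, SE 0.45, adjusted p = 4.1e-09). The synthetases Oas1a and Oas2 went the other way, by -2.19 (SE 0.67, adjusted p = 0.011; 0.068 without EpiSC 2) and -2.76 (SE 0.55, adjusted p = 0.0003), although their relative Oasl2 was at least 99.9-fold higher in EpiSC. EpiSC 3 was at least 1 above both other EpiSC arrays for 7 of 18 members (38.9%).

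Most sterol synthesis genes on the list rose. Of 20 tested, 17 were called higher in EpiSC and none lower, with a median of 1.04. Hmgcs1, the cytosolic HMG-CoA synthase, read 7.31, 7.12 and 7.10 in EpiSC and 4.47, 5.56, 5.81 and 5.26 in NACL (difference 1.90, SE 0.34, adjusted p = 0.0001). Idi1, the isopentenyl diphosphate isomerase, differed by 1.55 (SE 0.34) and Sqle, the squalene epoxidase, by 1.09 (SE 0.23). NACL 1 was the lowest of the NACL arrays for each of the 20 members, against 33.0% of all genes tested, and without it 12 were called higher. Within slide 5 alone 5 members were called and within slide 6 alone 4, all higher, but each of these fits has 1 array in one arm, which is assumed to vary like the other groups.

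Glycolysis genes had no common direction. Of 23 tested, 7 were called higher (30.4%) and 5 lower (21.7%), against 19.4% and 22.2% of all genes tested. The counts moved with the processing, from 12 higher and 3 lower under quantile normalization to 1 higher and 6 lower with the replicate number as a block. Leaving out NACL 1 or NACL 3 left 2 called lower. The lactate exporter Slc16a3 (MCT4) read 6.67, 6.70 and 6.76 in EpiSC and 3.16, 5.76, 5.60 and 4.34 in NACL (difference 1.99, SE 0.56, adjusted p = 0.0059), and NACL itself ranged over more than 2 log2 units. Platelet phosphofructokinase Pfkp read 1.40, 1.30 and 1.05 against 3.93, 4.24, 4.26 and 2.23 (difference -2.42, SE 0.50, adjusted p = 0.00043). Another probe of Pfkp was not called, at -0.7 (SE 0.44).

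Nuclear-encoded respiratory chain subunits were called lower for 13 of 21 and higher for none, with a median of -0.54. Cox7b, a subunit of cytochrome oxidase, read 6.06, 6.16 and 6.05 in EpiSC and 6.99, 7.31, 7.49 and 6.76 in NACL (difference -1.05, SE 0.17, adjusted p = 2.6e-05). Uqcrc1 differed by -1.16 (SE 0.22) and Cox4i1 by -0.93 (SE 0.17). With arrays centred on their medians the list's median was -0.40 and 2 members were called lower, and within slide 6, which holds NACL 4, none was. NACL 4 was the lowest of the NACL arrays for 18 of the 21 members (85.7%, against 30.8% of all genes tested), and without it 17 were called lower.

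Of 19 DNA replication and mitosis genes, 6 were called lower and none higher, with a median of -0.41. The count fell to 2 with median centring and to 3 without EpiSC 3. The replicative helicase subunit Mcm5 read 5.50, 5.41 and 4.94 in EpiSC and 6.75, 6.86, 6.59 and 6.46 in NACL (difference -1.38, SE 0.22, adjusted p = 2.7e-05). Ccne1 (cyclin E) differed by -1.63 (SE 0.37, adjusted p = 0.001). Among growth arrest and p53 genes 7 of 18 were called higher (38.9%) and 4 lower (22.2%), against 19.4% and 22.2% of all genes tested. The CDK inhibitor Cdkn1c (p57), also an imprinted gene, read 5.05, 5.10 and 4.86 in EpiSC and 0.41, 0.15, 1.85 and -0.60 in NACL (difference 4.55, SE 0.73, adjusted p = 2.7e-05). Pmaip1 (Noxa), a BH3-only promoter of apoptosis, read -1.85, -2.01 and -3.50 against 2.91, 3.06, 2.56 and 2.03 (difference -5.09, SE 0.35, adjusted p = 1.2e-10), and was higher in NACL than in 2iL by 2.76 (adjusted p = 2.6e-05).

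Metallothionein and redox genes were called lower in 8 of 18 and higher in 2, with a median of -0.46. The zinc-binding metallothionein Mt2 read 4.63, 4.64 and 5.34 in EpiSC and 9.41, 9.42, 8.82 and 8.88 in NACL (difference -4.27, SE 0.46, adjusted p = 1.4e-07), and Mt1 differed by -3.36 (SE 0.50); the pair are similar in sequence, and whether their probes cross-hybridise was not tested. The detoxifying enzymes Gpx2, Gsta3 and Nqo1 were lower by -4.71 (SE 0.61), -4.36 (SE 0.44) and -3.58 (SE 0.57). The cystine transporter Slc7a11 was at least 1.68-fold higher in EpiSC, being above background on no NACL array.

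Imprinted genes gave 6 higher (35.3%) and 3 lower (17.6%) of 17, against 19.4% and 22.2% of all genes tested, with a median of 0.43. Plagl1 (Zac1), a zinc finger growth regulator, read -3.98, -4.38 and -7.34 in EpiSC, with 2 arrays above background, and 4.12, 4.32, 2.41 and 3.99 in NACL (difference -8.94, SE 0.79, adjusted p = 5.8e-09). Another probe of Plagl1 differed by -9.0 (SE 0.73), but further probes differed by only -0.55 (SE 0.22) and -0.16 (SE 0.28). Snrpn, expressed from the paternal allele, read -4.92, -4.09 and -3.97, with 2 arrays above background, against 3.21, 2.87, 2.78 and 3.04 (difference -7.30, SE 1.21, adjusted p = 4.0e-05). Igf2 and Peg3, both paternally expressed, were higher in EpiSC by 4.75 (SE 0.60; 1 NACL array above background) and 3.27 (SE 0.38, adjusted p = 3.3e-07).

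Among axon guidance and adhesion genes, 9 of 20 were called higher (45.0%) and 3 lower (15.0%), with a median of 0.97. Over all genes tested the shares were 19.4% and 22.2%. The ephrin ligands Efnb2 and Efna5 were higher by 5.61 (SE 0.35, adjusted p = 2.5e-11; 3 NACL arrays above background) and 3.29 (SE 0.24, adjusted p = 3.4e-10). Another probe of Efnb2 was higher by only 1.72 (SE 0.58). The semaphorin Sema3e read 1.06, 1.28 and 2.10 in EpiSC and -3.67, -2.89, -3.31 and -2.68 in NACL (difference 4.61, SE 0.32, adjusted p = 1.1e-10).

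Markers of other cell types were read in both groups. Definitive endoderm markers were called higher in EpiSC for 8 of 12 and lower for 1, and their summed level without Trh was 13.4 to 22.1 in EpiSC and 2.15 to 5.95 in NACL. With Trh, a peptide hormone precursor that read 7.55, 7.47, 7.89 and 6.64 in NACL and 2.55, 2.57 and 3.34 in EpiSC, the sums were 19.3 to 32.2 and 106 to 239, so that 1 gene turned the order. Primitive endoderm markers gave 7 higher and 4 lower of 15, with sums of 46.3 to 50.3 in EpiSC and 6.91 to 25.1 in NACL. The defining factor Gata6 overlapped, at -1.85, -1.66 and -1.58 in EpiSC and -3.43, -2.83, -2.66 and -0.26 in NACL, and was called higher in EpiSC without NACL 4 (difference 1.28, adjusted p = 0.031). Sox7 was above background on no EpiSC array. Lrp2 (megalin), an uptake receptor, was higher in EpiSC by 4.72 (SE 0.45, adjusted p = 1.7e-08). Hnf4a, Amn and Cubn of the same list were called lower, by -5.56, -4.56 and -2.82. Neural and trophoblast markers were called higher for 4 of 9 each (2 without NACL 4 for neural and 2 without EpiSC 1 for trophoblast), and mesoderm markers for 2 of 10 (4 without NACL 4). In addition, 1 trophoblast and 1 mesoderm marker were called lower. The summed levels overlapped between the groups for neural (7.33 to 16.4 and 9.65 to 16.8) and mesoderm markers (10.2 to 12.4 and 8.48 to 10.5). The trophoblast sum was lower in EpiSC (4.63 to 4.68 against 6.87 to 15.7 in NACL), although more members were called higher than lower. The part of such cells in the results was not tested.

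Ranked over all genes rather than lists, and among those above background on all 7 arrays, the largest increase was that of Pkdcc, a secreted tyrosine kinase, which read 7.24, 7.09 and 6.25 in EpiSC and -0.18, -0.89, -1.04 and -0.69 in NACL (difference 7.56, SE 0.54, adjusted p = 1.7e-10). Syt13, a synaptotagmin, followed with 3.80, 3.87 and 3.67 against -3.63, -3.27, -4.04 and -3.34 (difference 7.35, SE 0.41, adjusted p = 3.7e-12). The leading 12 also held Fgf5, Pim2, Fgf8, the contractile genes Acta2, Myl9, Tagln and Cnn1, the axonal motor Kif1a (6.04), the sulfotransferase Chst1 (6.02) and the IGF carrier Igfbp3 (5.99). Among genes above background on all EpiSC arrays and no NACL array, the largest bounds were those of the protease Prss23, at least 304-fold higher, Trim67, at least 197-fold, Oasl2, Zfp608 at 90.6-fold, Cfc1 and Igfbp5 at 78.1-fold. Another probe of Trim67 differed by 5.12 (SE 0.48), against 9.46 for the brightest.

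Among genes above background on all 7 arrays, the largest decrease was that of Tdh, threonine dehydrogenase, the enzyme on which mouse ESC depend for one-carbon units. Tdh read -2.39, -1.90 and -1.74 in EpiSC and 8.52, 8.84, 8.97 and 8.44 in NACL, 1660-fold lower (difference -10.70, SE 0.54, adjusted p = 6.6e-13). Mymx (minion), a micropeptide known from myoblast fusion, read -2.79, -2.77 and -2.94 against 5.37, 5.88, 6.54 and 6.36 (difference -8.87, SE 0.71, adjusted p = 1.0e-09). Pigp differed by -9.43, but another probe of the gene was called higher by 1.07. The rest of the leading 12 were Dppa5a, Cdx1, Esrrb, Nr5a2, 1700097N02Rik, Gm4340, Angptl4, Klf4 and Septin1, from -8.56 to -6.99. Another probe of Septin1 differed by only -1.89 (SE 0.36). Among genes above background on all NACL arrays and no EpiSC array, the largest bounds were those of Rpl10l, a testis ribosomal protein retrogene, at least 1320-fold lower, Tcl1, Nr0b1, Phf11d at 498-fold, and the meiotic genes Syce1 at 395-fold and Morc1 at 381-fold. Another probe of Rpl10l differed by -6.8 (SE 0.4), against -11.8 for the brightest.

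The ESC arrays of line HRHnG, which share the reporter line of the EpiSC but belong to the other array set with its own slides and scans, give values to set beside these. In that comparison 4177 genes were called higher in EpiSC (25.6%) and 2932 lower (17.9%). The EpiSC minus ESC difference was -10.75 for Zfp42, -7.31 for Esrrb, -9.90 for Tdh, 5.72 for Pim2, 6.56 for Acta2, 4.57 for H2-K1 and -7.73 for Plagl1, each with the sign it had against NACL. For other genes the values differed from those against NACL. Snrpn read -3.69 on average in the HRHnG ESC and differed from EpiSC by -0.64 (adjusted p = 0.72). Trh averaged 3.89 there (EpiSC minus ESC -1.07, adjusted p = 0.40), and Thy1 was higher in EpiSC than in these ESC by 2.42 (adjusted p = 0.016) while it was lower than in NACL. The comparisons share the EpiSC arrays, and array set cannot be told apart from group in the one with ESC. The part of culture medium in these values was not tested either.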

How the data were processed

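Total RNA was prepared with a column kit, labelled with Cy3 and hybridised to 1-colour Agilent arrays, per the labels' protocols. The deposited intensity values are spot signals (gProcessedSignal, background-corrected) from Agilent Feature Extraction 12.0.1.1 for EpiSC, NACL and 2iL and 11.0.1.1 for the ESC arrays, per the file headers, while the submitters' processing notes name 9.1. The series' value table holds values on what was read as a log2 scale; the authors' background step, normalization and log base are not given in the sources used here, its column medians lay between 5.94 and 5.949, and it served as an alternative.

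Control spots were left out, and so were outlier spots (186 to 243 of the 59305 other spots per array, none saturated). Spots of a probe were averaged, and log2 signals were taken relative to each array's 75th percentile. Of 55681 probes, 27669 were named, through RefSeq GRCm38.p6 tables, for 20972 genes, and 28012 stayed unnamed. Each gene was read by its brightest probe. A gene was tested if every array of any 1 group read it well above background (16347 genes). limma 3.58.1 (R 4.3.3) fitted all 29 arrays by group, with Benjamini-Hochberg adjustment; 18 missing values were left missing. In simulated data for EpiSC minus NACL with 16347 genes, 50 genes each were changed by log2 0.5, 1, 2 and 4. Of these 2%, 46%, 66% and 100% were recovered, with 4 false calls. All other genes were set equal between the groups, and noise was independent between arrays. In the real data 41.7% of genes were called and some arrays stood apart over whole gene lists, so these shares do not carry over to this contrast. Replicate numbers were not taken as pairs, since deviations of same-numbered arrays correlated at 0.1, -0.15 and 0.04.

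Genes were named by a rule: the 12 largest called differences each way among genes above background on all 7 arrays, the 6 largest bounds each way, the leading called members of each list, up to 4 each way, and members of the naive, general and primed lists and of the marker lists. Other list members that are named were chosen after their values were seen. The members and lists were chosen with earlier results of these data known. Within-slide fits and averaging EpiSC 1 and 2 were added after seeing the data. Probe sequences were not used here. Figures were drawn with matplotlib 3.10.9.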

Additional observations from a re-analysis of the deposited data

Results flagged for a closer look

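In 7 of the 166 named genes given this test, 1 NACL array stood apart from the other NACL arrays by more than Dixon's critical value for 4 samples. Chance alone gives about 1 in 20 groups, and 7 of 166 does not exceed that rate. The arrays and lines below are therefore listed as a description only. NACL 4, the array of line E14-NanogGFP, was the one apart in 4 of them, reading 8.57 for Dppa5a, 0.76 for Mael and 2.23 for Pfkp, all below the other NACL arrays, and -0.41 for Ccn1, above them. NACL 3, of line E14, was above the others for Tagln at 0.38 and for Sox11 at 0.14. NACL 1 was below them for Dusp5 at -6.64. Every one of these genes was called with all arrays in. EpiSC has 3 arrays and was not tested in this way.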

How the results depend on the processing

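Leaving out each array in turn gave 5766 to 6760 genes called, 2691 to 3160 of them higher and 2934 to 3600 lower. With only the EpiSC and NACL arrays in the fit, 5574 genes were called, 2642 higher and 2932 lower. The number called lower moved to 1848 with arrays centred on their medians and to 2025 with a log2 difference of at least 1, which left 4310 called in all. Within slide 5 (EpiSC 1 against NACL 1 to 3), 3452 genes were called, 1729 higher and 1723 lower, and within slide 6 (EpiSC 2 and 3 against NACL 4), 3798 were, 1747 higher and 2051 lower; these fits have fewer arrays, with 1 array in one arm assumed to vary like the other groups, and were added after seeing the data. Median centring, quantile normalization and the 75th percentile over detected probes shifted the median of all genes by 0.14, 0.12 and 0.13, and other settings by 0.1 or less in either direction. With the replicate number as a block, 2628 genes were called higher and 2442 lower; the numbers are not known to pair the cultures.

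Of the 166 named genes checked in this way, 158 were called. None of these changed sign under any alternative and 113 stayed called under all of them. On leaving out 1 array, 11 lost the call. Many of these genes were named for their large called differences in the same arrays, so the counts do not describe the called genes as a whole. Of the uncalled genes named, Nanog turned to 0.24 with the mean of its probes, to 0.06 against the E14 lines and to 0.86 within slide 6, and Gata6 to -0.23 against the E14 lines and to -1.36 within slide 6. The cause of these changes was not tested. Of 1612 list counts under alternatives, 1407 were within 1.5 times the reported count. Only 13 of the 62 reported list counts stayed within that range under every alternative. A dim probe gives only a bound, and 173 tested genes were above background on no EpiSC or NACL array, 10 of them called.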

Other observations

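For 4234 of the genes tested the array carried another probe of the same gene that could be read beside the brightest one, and for 15 genes both were called in opposite directions. Pigp and Cdh11, given above, are among them. Which transcripts the probes of such a gene read was not tested.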
